A study of Homo sapiens with 4 samples.

Results

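Connexins are the subunits of gap junction channels, and the 7 described here are GJA1, GJA3, GJA4, GJA5, GJC1, GJD3 and GJB2. They were taken by symbol from the deposited gene table, which holds 23615 symbols and 20 connexin genes. Poly-A RNA was sequenced from unsorted day 14 cultures in 4 libraries, 2 per group, and compared cardiomyocytes made by 2 routes. Cultures of RUES2, a line of human embryonic stem cells, were pretreated with CHIR-99021, a GSK3 inhibitor, and induced in both groups with activin A at 100 ng/ml and then with BMP4 at 5 ng/ml (A100/B5) together with 1 µM CHIR-99021. CPC cardiomyocytes came from cardiac progenitor cells, which received 1 µM XAV-939 (XAV), a tankyrase inhibitor that blocks Wnt/β-catenin signaling, on day 3 as the supplement draws it. ECsXAV cardiomyocytes came from hemogenic endothelial cells, which were moved on day 2 to medium with 200 ng/ml VEGF, 5 ng/ml bFGF and 10 ng/ml BMP4, and received 2 µM XAV on day 5. Both groups come from a single cell line, and the names of the samples begin differently in the groups, so the route and a separate experiment cannot be told apart.

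Connexins assemble into rings in the cell membrane that dock with rings of the neighbouring cell, and the channels pass ions and small molecules between the cells. In the heart they carry the action potential from myocyte to myocyte. GJA1 (Cx43) is the main connexin of working ventricular muscle, GJA5 (Cx40) belongs to atrial muscle, the fast conduction system and arterial endothelium, and GJC1 (Cx45) belongs to nodal tissue and the early heart tube. GJD3 (Cx31.9) is the human counterpart of a mouse connexin of the atrioventricular node, GJA4 (Cx37) is known from arterial endothelium, GJA3 (Cx46) from the lens, and GJB2 (Cx26) from the inner ear and from epithelia.

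Promoter sequences are shown for the 3 connexins on which the levels turn: GJA1, the one that passed the test, GJA5, the other cardiac connexin with lower values in CPC libraries, and GJA3, the most abundant. RefSeq promoters (GRCh38.p14) were found for 4 of the 7 connexins, with 5 start sites in all. Each line gives the 250 bases before a start site, 5′ to 3′ on the strand of the gene. Capitals mark matches on either strand to the AP-1 letters TGANTCA, the T-box core site GGTGTG or the NKX2-5 letters AAGTG. Transcription factors of these families are known to act on cardiac connexin genes.
GJA1, chr6:121435396-121435645, plus strand: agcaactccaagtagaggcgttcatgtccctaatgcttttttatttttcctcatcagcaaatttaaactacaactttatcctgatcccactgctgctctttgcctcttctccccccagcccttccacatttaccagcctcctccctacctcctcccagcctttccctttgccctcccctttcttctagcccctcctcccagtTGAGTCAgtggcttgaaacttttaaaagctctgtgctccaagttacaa
GJA5, upstream start, chr1:147773352-147773601, minus strand: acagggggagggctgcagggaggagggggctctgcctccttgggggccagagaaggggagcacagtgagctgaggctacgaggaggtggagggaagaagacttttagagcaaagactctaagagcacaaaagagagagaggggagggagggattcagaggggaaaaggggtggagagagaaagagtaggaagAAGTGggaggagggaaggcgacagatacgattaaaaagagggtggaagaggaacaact
GJA5, downstream start, chr1:147760603-147760852, minus strand: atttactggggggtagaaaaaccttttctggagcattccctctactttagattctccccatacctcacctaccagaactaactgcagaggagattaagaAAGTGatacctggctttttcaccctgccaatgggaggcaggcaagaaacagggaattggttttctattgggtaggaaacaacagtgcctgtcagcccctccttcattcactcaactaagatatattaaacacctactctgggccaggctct
GJA3, chr13:20161053-20161302, minus strand: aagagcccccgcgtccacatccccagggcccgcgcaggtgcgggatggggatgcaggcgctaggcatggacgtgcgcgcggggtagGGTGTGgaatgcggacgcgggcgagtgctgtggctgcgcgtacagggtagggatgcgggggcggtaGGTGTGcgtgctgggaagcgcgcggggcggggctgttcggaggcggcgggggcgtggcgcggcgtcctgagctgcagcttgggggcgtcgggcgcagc

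The GJA1 window held 1 AP-1 match, which began 48 bases before the start site (position -48), and none of the other letters. Each GJA5 window held 1 NKX2-5 match, at -58 for the upstream start and at -151 for the downstream start. The GJA3 window held 2 T-box core sites, at -164 and -98, and 2 GC boxes (GGGCGG, bound by SP1), at -106 and -74, which did not overlap them. The GJB2 window, not printed, held 1 T-box core site at -42, 1 NKX2-5 match at -235 and 3 GC boxes. No window held a TATA box (TATAAA). Of 35116 RefSeq promoter windows of the same length, 6.57% held the AP-1 letters, 14.2% the T-box core site, 37.6% the NKX2-5 letters, 42.6% a GC box and 10.7% a TATA box, so the shorter patterns are common. GC content was 74.8% in the GJA3 window, 48% in the GJA1 window and 55.6% and 45.6% in the GJA5 windows. These matches are letters in a window and not measured binding sites.

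Levels are FPKM, fragments scaled by the length of the gene and by the mapped fragments of the library, which allow levels of different genes to be set side by side. The total depth of the libraries is unknown, and the shallowest library, ECsXAV replicate 2, had 50.1% of the depth of the deepest, ECsXAV replicate 1, beside 79.8% and 86.9% for the CPC libraries. Cardiomyocyte markers were abundant in every library. Their summed level over 10 markers was 16845 to 17527 FPKM in ECsXAV and 15149 to 15875 FPKM in CPC. Of the 10, 2 were called (MYH7 lower and MYH6 higher in CPC), beside 2.15% of all tested genes. Log2 fold changes were the CPC minus the ECsXAV mean of log2(FPKM + 1), fitted with limma. A negative value is lower in CPC, and the added 1 understates the change of weakly expressed genes. A gene was called with a Benjamini-Hochberg adjusted p under 0.05 and a change over 2-fold, among the 12398 genes whose mean reached 1 FPKM. For a single value, 2 libraries against 2 allow an exact permutation p of 0.333 at the least (two-sided), and limma reaches lower p by sharing the variance across genes. In bulk RNA, fewer cells of a type and less RNA per cell cannot be told apart.

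Of the 7 connexins, GJA1 was the only one called, at a level 5.76-fold lower in CPC than in ECsXAV libraries. GJA3 was the most abundant connexin in each of the 4 libraries, and GJA1 and GJC1 changed places in the order between the groups. The mean FPKM of 5 connexins reached the filter, and GJA4 and GJD3 fell under it. The call rate was 1 of 5, beside 2.15% of all tested genes called in either direction and 1.44% called lower in CPC. The libraries of the groups did not overlap for 3 of the 5, a share near the 49.8% of all tested genes. The median log2 fold change of the 5 was -0.12, beside -0.0045 over all tested genes.

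**Figure D1:**
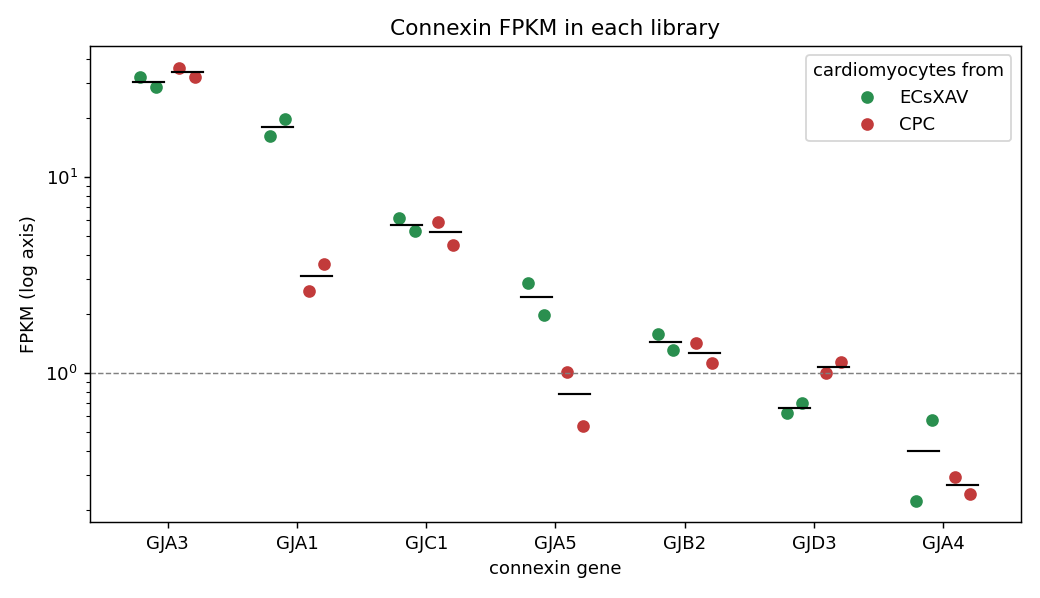
FPKM on a log axis of the 7 connexins in each of the 4 libraries. Points are libraries, short lines are group means (n = 2), and the dashed line is 1 FPKM. GJA1 lies at 16.2 and 19.7 FPKM in ECsXAV and at 2.63 and 3.60 FPKM in CPC, while the points of GJC1 and GJB2 overlap between the groups.

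GJA1 lies on chromosome 6 from 121756741 to 121770873 (GRCh37, the build of hg19, plus strand), with its protein encoded in 1 exon. It had 16.2 and 19.7 FPKM in ECsXAV replicates 1 and 2 and 2.63 and 3.60 FPKM in CPC replicates 1 and 2. Both ECsXAV values stood above both CPC values, with means of 17.9 ± 2.48 and 3.11 ± 0.684 FPKM (SD, n = 2). The log2 fold change was -2.21 (standard error 0.17, 95% interval -2.66 to -1.76, adjusted p = 0.0139 from limma). The call was lost when CPC replicate 1 (adjusted p = 0.0827 from limma) or CPC replicate 2 (adjusted p = 0.0669 from limma) was left out, with log2 fold changes of -2.04 and -2.38. It was lost as well with no filter on low values (adjusted p = 0.0617 from limma). A processed pseudogene, GJA1P1, lies on chromosome 5 from 108387016 to 108388158, and how reads that match both were shared is not given in the sources used here.

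Markers of other cell types were measured beside GJA1, which cells other than cardiomyocytes also express. The summed level of 10 fibroblast and smooth muscle markers was 291 to 318 FPKM in ECsXAV and 160 to 181 FPKM in CPC. LUM and TAGLN, 2 of the 6 tested, were called, both lower in CPC, beside 2.15% of all tested genes called. Of the 6 tested, 3 had lower and 3 had higher means in CPC on the log2 scale, the latter being PDGFRA, POSTN and ACTA2. The fibroblast marker DCN, not tested, had 0.410 and 0.600 FPKM in ECsXAV and 0.0420 and 0 FPKM in CPC, and the smooth muscle marker MYH11, not tested, had 0.0844 and 0.154 FPKM in ECsXAV and 0.351 and 0.433 FPKM in CPC. The summed level of 12 epithelial and endoderm markers was 288 to 502 FPKM in ECsXAV and 200.1 to 231 FPKM in CPC. AFP and TTR, 2 of the 8 tested, were called, both lower in CPC, beside the same 2.15% of all tested genes. The epithelial keratins KRT8 and KRT18 were listed at 0 in ECsXAV replicate 1 and CPC replicate 2 and at 31.4 to 99.0 FPKM in the other libraries, which moves that sum. All 8 tested had lower means in CPC on the log2 scale, with a median log2 fold change of -0.72. KRT19, listed above 0 in every library, had 178 and 223 FPKM in ECsXAV and 82.1 and 128 FPKM in CPC (adjusted p = 0.144 from limma). The 7 neural markers had a summed level of 5.53 to 6.24 FPKM in ECsXAV and 2.29 to 3.34 FPKM in CPC. Of the 2 tested, TUBB3 was called lower in CPC, beside 2.15% of all tested genes called. DCX was not called, with a log2 fold change of 0.22. The part of these cell types in the GJA1 result was not tested.

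GJA5 lies on chromosome 1 from 147228332 to 147245466 (GRCh37, minus strand). Its level was 2.89 and 1.98 FPKM in ECsXAV and 1.01 and 0.537 FPKM in CPC. The groups did not overlap, and the ECsXAV mean was 3.14 times the CPC mean. The log2 fold change of -0.95 (standard error 0.22, 95% interval -1.53 to -0.38) did not pass the adjustment over all genes (adjusted p = 0.115 from limma). The paper, with a count test on these groups, names GJA5 and GJA1 among the cardiac genes that differed significantly at over 2-fold. That test was not repeated here, and the FPKM fit is an unlike measure. With a pseudocount of 0.1 the log2 fold change was -1.57 (adjusted p = 0.124 from limma). With short RNA genes and genes at 0 in 1 replicate left out, a setting chosen after seeing the data, the adjusted p was 0.0145 from limma at the same log2 fold change, under the 2-fold limit. A long noncoding gene overlaps GJA5 on the other strand, and the use of strand in the FPKM is not given in the sources used here, so reads of the pair may be mixed.

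GJC1 lies on chromosome 17 from 42875816 to 42908184 (GRCh37, minus strand). It had 6.15 and 5.28 FPKM in ECsXAV and 5.92 and 4.51 FPKM in CPC. The groups overlapped, and both replicate 1 libraries were above both replicate 2 libraries. The log2 fold change of -0.12 (95% interval -0.54 to 0.30, adjusted p = 0.766 from limma) had an interval within a 2-fold change of FPKM + 1 in either direction. Without CPC replicate 2 it was 0.045, so the data give no direction for GJC1.

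The order of GJA1 and GJC1 therefore differed between the groups. GJA1 had 2.63 and 3.72 times the FPKM of GJC1 in the ECsXAV replicates and 0.445 and 0.797 times in the CPC replicates. The ratios did not overlap (exact permutation p = 0.333, two-sided, the smallest these libraries can give). In CPC replicate 2 the levels of GJA1 and GJC1, 3.60 and 4.51 FPKM, were closer to each other than in any other library.

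GJD3 lies on chromosome 17 from 38516904 to 38520989 (GRCh37, minus strand). It had 0.624 and 0.705 FPKM in ECsXAV and 1.0 and 1.14 FPKM in CPC, and the groups did not overlap. Its mean over the 4 libraries was 0.867 FPKM, so it was not among the tested genes. With no filter, GJD3 had an adjusted p of 0.201 from limma. The CPC mean was 1.61 times the ECsXAV mean, the opposite order to that of GJA1 and GJA5. Scaled by relative depth, its values stood near the proportion 16 to 9 to 22 to 23 in ECsXAV replicates 1 and 2 and CPC replicates 1 and 2. These are the smallest whole numbers that match within 2%, a loose limit at such numbers, and are not counts of reads. The antisense gene GJD3-AS1 overlaps it, so its level is uncertain in the same way as that of GJA5.

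GJA4, on chromosome 1 from 35258600 to 35261348 (GRCh37, plus strand), was the least abundant of the 7 in every library. It had 0.223 and 0.571 FPKM in ECsXAV and 0.293 and 0.239 FPKM in CPC, and the CPC values lay between the ECsXAV values. Scaled by relative depth, the GJA4 values stood near the proportion 7 to 9 to 8 to 6, in the same order of libraries. These are the smallest whole numbers that match within 2% and are not counts of reads. GJA4 was not tested. Endothelial markers were low in both groups. Of 12, 7 were under 1 FPKM in every library, and PECAM1 reached at most 0.233 FPKM, CLDN5 at most 0.0428 FPKM and VWF at most 0.0209 FPKM. By limma, 0 of the 4 tested were called, beside 2.15% of all tested genes. At an unadjusted p under 0.05 there were 0 of the 4, beside 18.2% of all tested genes. VWF was listed at 0 in both CPC libraries and CLDN5 in ECsXAV replicate 2. Their summed level of 28.7 to 30.2 FPKM in ECsXAV and 25.0 to 27.2 FPKM in CPC came mostly from EGFL7 and KDR.

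GJA3 lies on chromosome 13 from 20712394 to 20735191 (GRCh37, minus strand). It had 32.2 and 28.8 FPKM in ECsXAV and 36.2 and 32.5 FPKM in CPC, above every other connexin in each library. Its mean of 32.4 FPKM ranked 1756 of the 23615 symbols, while GJA1 ranked 5330. The nearest libraries of the groups, at 32.2 and 32.5 FPKM, differed by less than the replicates of either group, with means of 30.5 ± 2.45 and 34.3 ± 2.56 FPKM (SD, n = 2). The log2 fold change was 0.17 (standard error 0.12, 95% interval -0.15 to 0.48, adjusted p = 0.538 from limma), an interval that stays within a 2-fold change of FPKM + 1.

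GJB2 lies 26410 bases from GJA3, on chromosome 13 from 20761602 to 20767077 (GRCh37, minus strand). It had 1.57 and 1.31 FPKM in ECsXAV and 1.42 and 1.12 FPKM in CPC. The groups overlapped, with a log2 fold change of -0.11 (95% interval -0.52 to 0.31, adjusted p = 0.786 from limma). GJB2 is not in the list of epithelial and endoderm markers given above, of which AFP and TTR were called and all 8 tested had lower means in CPC. KRT8 and KRT18, with their zeros, had intervals too wide to give a direction (KRT8 -7.74 to 6.93).

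**Figure D2:**
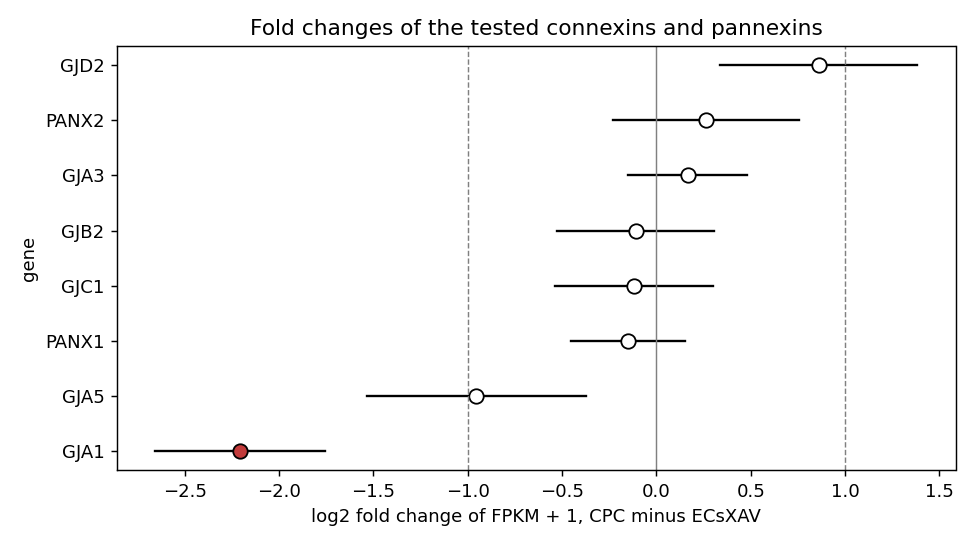
Log2 fold change of FPKM + 1 (CPC minus ECsXAV) of the tested connexins and pannexins, with 95% intervals from limma. Dashed lines mark a 2-fold change and the filled point is the called gene, GJA1 at -2.21. The intervals of GJA3, GJC1 and GJB2 lie between the dashed lines.

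The make-up of the connexin transcripts differed between the groups mainly in GJA1 and GJA3. The summed FPKM of the 7 connexins was 59.9 and 58.3 in ECsXAV and 48.4 and 43.7 in CPC. The groups did not overlap, with means of 59.1 ± 1.11 and 46.0 ± 3.36 FPKM (SD, n = 2, exact permutation p = 0.333, two-sided). Without GJA3, a sum added after seeing the data, the values were 27.6 and 29.5 FPKM in ECsXAV and 12.3 and 11.1 FPKM in CPC.

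GJA1 made up 27.0% and 33.7% of the sum in ECsXAV and 5.43% and 8.24% in CPC. GJA3 made up 53.9% and 49.4% in ECsXAV and 74.7% and 74.5% in CPC. GJC1 made up 10.3% and 9.06% in ECsXAV and 12.2% and 10.3% in CPC. The shares of GJA1 and GJA3 were far apart between the groups, while the nearest GJC1 libraries of the groups differed by 0.0692 percentage points, less than the spread between replicates. GJA5 made up 4.83% and 3.40% in ECsXAV and 2.09% and 1.23% in CPC, and GJD3 1.04% and 1.21% in ECsXAV and 2.07% and 2.60% in CPC. The shares of GJB2 (2.25% to 2.93%) and GJA4 (0.372% to 0.980%) overlapped. In the permutation test over the libraries, the shares of 5 connexins reached the smallest possible p of 0.333 (0.467 adjusted over the 7 shares), GJB2 had p = 0.667 and GJA4 p = 1, all exact and two-sided. Shares of a sum are tied together: with a lower GJA1 the shares of the other connexins are higher at an equal level.

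**Figure D3:**
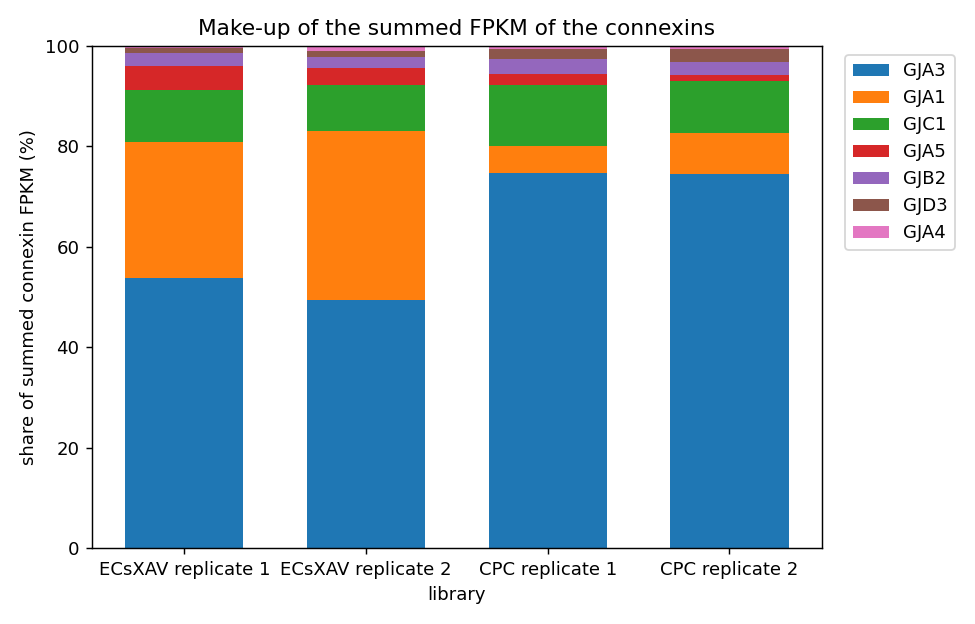
Share of each connexin in the summed FPKM of the 7, in percent, with 1 bar for each library. GJA1 takes 27.0% and 33.7% in ECsXAV and 5.43% and 8.24% in CPC, and GJA3 takes over 74% in both CPC libraries.

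With GJA3 left out, the remaining make-up set the cardiac connexins against each other. GJA1 made up 58.5% and 66.6% of the other 6 in ECsXAV and 21.4% and 32.3% in CPC. GJC1 made up 22.3% and 17.9% in ECsXAV and 48.2% and 40.5% in CPC. GJC1 thus held the first place among the 6 in both CPC libraries and GJA1 in both ECsXAV libraries, at levels of GJC1 that overlapped between the groups. GJA5 overlapped on this scale, with 10.5% and 6.72% in ECsXAV and 8.27% and 4.82% in CPC.

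In both ECsXAV libraries the order of levels was GJA3, GJA1, GJC1, GJA5, GJB2, GJD3 and GJA4. In CPC replicate 1 it was GJA3, GJC1, GJA1, GJB2, GJA5, GJD3 and GJA4, and in CPC replicate 2 GJD3 stood above GJB2 and GJA5. GJA3 and GJA4 kept the first and the last place in every library. Of the middle places, the order of GJA5, GJB2 and GJD3 within CPC differed between the replicates and is not larger than their spread.

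The transcripts behind GJA5 and GJC1 were not stable between replicates. The transcript table holds 1 RefSeq transcript for each of the other 5 connexins and 2 for GJA5 and GJC1. Of the GJA5 FPKM, transcript NM_005266 took 77.0% and 0.0362% in the ECsXAV replicates and 99.8% and 3.66% in the CPC replicates, with the rest on NM_181703. Replicate 1 libraries of both groups thus put most of GJA5 on one transcript and replicate 2 libraries on the other. Of the GJC1 FPKM, NM_005497 took 45.8% in ECsXAV replicate 1 and 99.8% or more (rounded) in the other libraries, with the rest on NM_001080383. The split varied within the groups as much as between them and gives no difference between the routes.

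**Figure D4:**
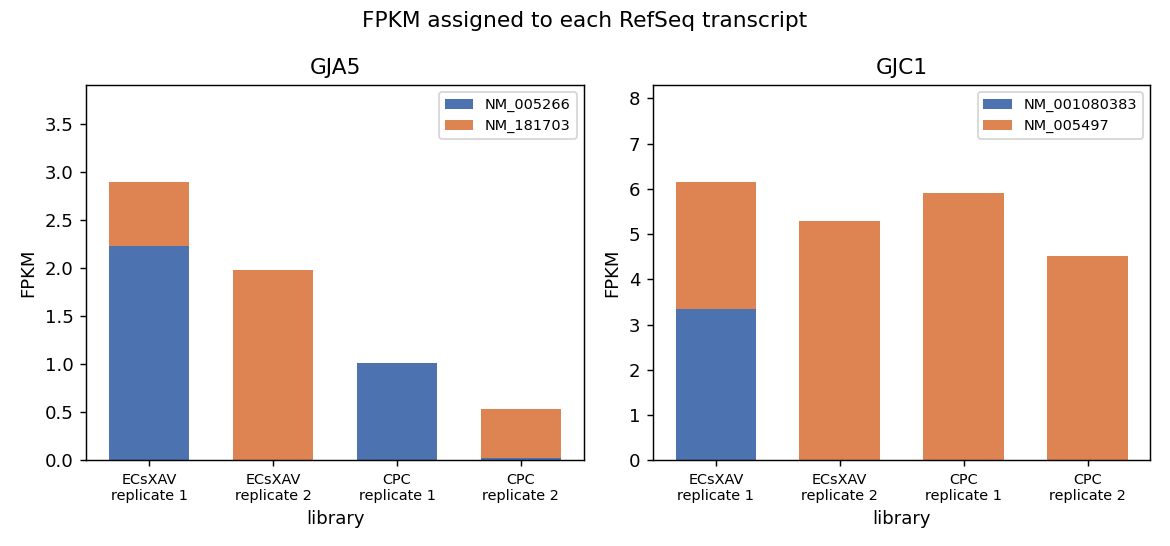
FPKM assigned to each RefSeq transcript of GJA5 and GJC1, stacked, with 1 bar for each library. GJA5 lies on NM_005266 in CPC replicate 1 (99.8%) and on NM_181703 in ECsXAV replicate 2, and the GJC1 split of ECsXAV replicate 1 is absent from the other libraries.

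Outside the 7, GJD2 (Cx36), known from neurons and pancreatic beta cells, was the one connexin with a mean above 1 FPKM. It had 0.354 and 0.806 FPKM in ECsXAV and 1.98 and 1.71 FPKM in CPC, without overlap. Its log2 fold change of 0.86 (standard error 0.20, 95% interval 0.34 to 1.38) did not pass (adjusted p = 0.115 from limma, and 0.0167 with short RNA genes and genes at 0 in 1 replicate left out). The other 12 connexins of the table stayed under 1 FPKM in every library, 11 of them under 0.1 FPKM, and the 7 held 95.7% to 98.8% of all connexin FPKM. GJE1 was not analysed here. PANX1, a pannexin that forms channels to the outside of the cell, had 4.65 and 4.64 FPKM in ECsXAV and 4.26 and 3.93 FPKM in CPC, and its log2 fold change was -0.15 (limma, adjusted p = 0.567).

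Lists of other connexins, pannexins, partners, kinases and transcription regulators held 70 genes, of which 69 were in the table and 51 were tested. Of these, 2 were called, both lower in CPC (CAV1 and CDK1), beside 2.15% of all tested genes called, and the median log2 fold change was -0.032, beside -0.0045 over all tested genes.

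The called partner was CAV1, the main protein of caveolae, which binds Cx43. It had 9.06 and 8.77 FPKM in ECsXAV and 1.05 and 1.70 FPKM in CPC, without overlap, and differed by -2.08 on the log2 scale (limma, standard error 0.17, adjusted p = 0.0158). Of 18 tested partners, CAV1 was the only one called (2.15% of all tested genes were), and their median log2 fold change was -0.065. TJP1 (ZO-1), the scaffold that binds the tail of Cx43, had 28.8 and 26.4 FPKM in ECsXAV and 25.5 and 22.0 FPKM in CPC, a difference of -0.21 on the log2 scale (limma, adjusted p = 0.462).

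Of 14 tested kinases that phosphorylate connexins, 1 was called (2.15% of all tested genes were), with a median log2 fold change of -0.026 over the list. CDK1, the mitotic kinase, had 12.4 and 10.3 FPKM in ECsXAV and 3.81 and 3.49 FPKM in CPC, a difference of -1.41 on the log2 scale (limma, standard error 0.14, adjusted p = 0.0208). CAV1 and CDK1 were both called with all 4 libraries, while neither was when ECsXAV replicate 2 or CPC replicate 1 was left out, and CAV1 alone was when ECsXAV replicate 1 or CPC replicate 2 was.

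Of 16 tested transcription regulators of cardiac connexins, 0 were called by limma, beside 2.15% of all tested genes, and 5 had an unadjusted p under 0.05, beside 18.2% of all tested genes. The median log2 fold change of the list was 0.037, with 7 genes lower and 9 higher in CPC. The largest changes were those of HAND1 (-1.67, adjusted p = 0.0577 from limma) and HEY2 (-1.10, adjusted p = 0.0706 from limma), both lower in CPC. TBX2 and TBX3, repressors of GJA1 and GJA5 in nonchamber myocardium, had higher values in both CPC libraries without passing the test. TBX2 had 19.7 and 17.0 FPKM in ECsXAV and 44.7 and 28.9 FPKM in CPC, a difference of 0.94 on the log2 scale (limma, adjusted p = 0.124). TBX3 had 1.96 and 2.47 FPKM in ECsXAV and 6.46 and 4.17 FPKM in CPC, a difference of 0.95 on the log2 scale (limma, adjusted p = 0.110). In the FPKM fit, the activators of GJA5 were closer between the groups. TBX5 had a log2 fold change of -0.32 (adjusted p = 0.315), NKX2-5 one of 0.24 (adjusted p = 0.603) and GATA4 one of -0.13 (adjusted p = 0.757), all from limma. TBX5 had 16.7 and 19.0 FPKM in ECsXAV and 12.8 and 15.4 FPKM in CPC, without overlap. The paper's count test on these groups, not repeated here, differs: TBX5 is named there among the cardiac genes that changed significantly at over 2-fold. Chosen after their values were seen, the AP-1 subunit gene JUN had 30.6 and 38.9 FPKM in ECsXAV and 12.9 and 19.0 FPKM in CPC, a difference of -1.09 on the log2 scale (limma, adjusted p = 0.0869), and its partner FOS differed by 0.41 (limma, adjusted p = 0.465). With limma's robust variance, or with short RNA genes left out along with genes at 0 in 1 replicate and 5 FPKM or more in the other, both chosen after seeing the data, JUN, HAND1 and HEY2 were called as well, all lower in CPC. Of the other alternatives, the replicate block called JUN beside CAV1 and CDK1, and a pseudocount of 0.1 called HAND1 beside them.

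**Figure D5:**
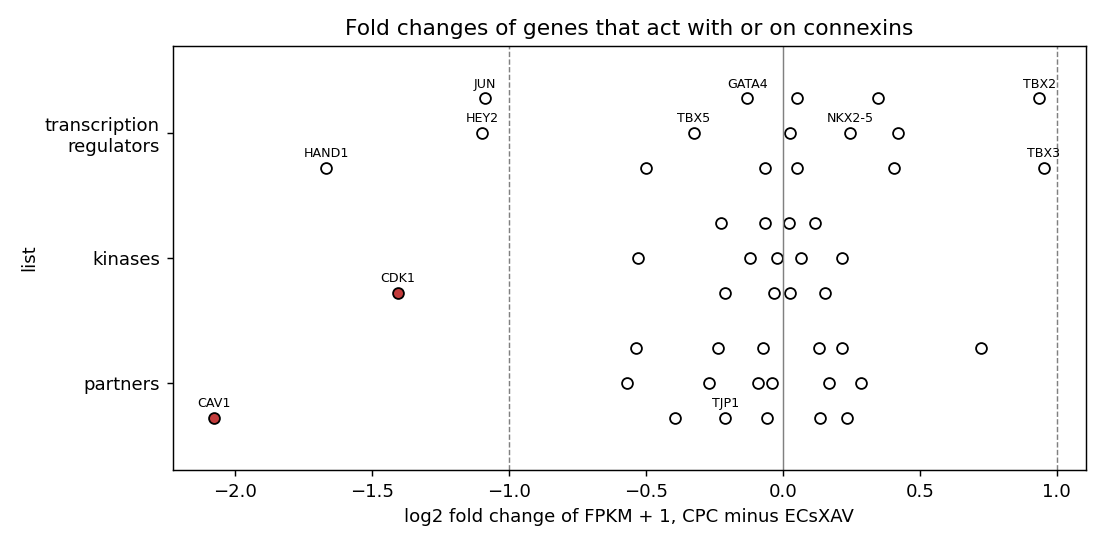
Log2 fold change of FPKM + 1 (CPC minus ECsXAV) of the tested partners, kinases and transcription regulators of connexins, with 1 point for each gene. Filled points are called genes and dashed lines mark a 2-fold change. CAV1 at -2.08 and CDK1 at -1.41 are the called genes, and the vertical offset within a list only separates points.

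Among the genes whose pattern over the 4 libraries was nearest to that of GJA1, by root mean square difference of centred log2(FPKM + 1), were UCHL1 (0.0975), ANXA1 (0.103), CDKN1A (0.119) and CAV1 (0.129). These 4 were called lower in CPC, which follows from their likeness to GJA1. UCHL1, a ubiquitin hydrolase known from neurons, had 18.1 and 18.8 FPKM in ECsXAV and 3.04 and 4.17 FPKM in CPC. The genes nearest to GJC1 were TMTC4 (0.0045), FLVCR1 (0.0082), LATS1 (0.0091), ITGB1 (0.0093) and TAF1B (0.0095), none of them called. In all 5 of these, as in GJC1, replicate 1 was above replicate 2 in both groups, which follows from their likeness to GJC1.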

How the data were processed

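Poly-A libraries of 4 unsorted day 14 cultures of RUES2 cells were analysed, with 2 biological replicates of ECsXAV and 2 of CPC, grouped by the sample labels; doses came from the paper's methods. The authors deposited FPKM per gene and per transcript, made with Cufflinks on hg19, and the submitters' processing notes also name TopHat 1.3.3. Scaling between libraries, use of strand and the handling of reads with several alignments are not given in the sources used here for the FPKM. The count test of the study was not repeated, since only FPKM were used, and the total depth is unknown. Relative depth came from the steps between FPKM of 0.005 to 0.1. A symbol with several loci has repeated entries, of which the highest value per library was used.

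Genes whose mean reached 1 FPKM were tested on log2(FPKM + 1) with limma 3.58.1 in R 4.3.3, with an intensity trend and Benjamini-Hochberg adjustment over all 12398. Tables were made in Python 3.11.15 with NumPy 2.4.6 and pandas 2.3.3, and plots with matplotlib 3.10.9. Of the steps, the limma fit was tested on simulated data. Single values were compared by exact permutation over the libraries. Gene positions came from GENCODE lifted to GRCh37 and promoters from RefSeq.

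The members, gene lists and tests were chosen with earlier results of these data known. Named genes are the 7 members, called genes of the pathway lists, connexins with a mean of at least 1 FPKM, PANX1, TJP1, TBX2, TBX3, TBX5, NKX2-5, GATA4, and the 5 tested genes nearest in pattern to GJA1 and to GJC1, of which 1 is not reported here; marker genes and others were chosen after their values were seen. Alternatives were median-of-ratios scaling, quantile normalization, a pseudocount of 0.1, a filter at 5 FPKM or none, a fit without trend, a replicate block, the transcript table, summed loci, leaving out each replicate, and 4 settings added after seeing the data.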

Additional observations from a re-analysis of the deposited data

How the results depend on the processing

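GJA1 kept its direction in all 16 alternatives, with log2 fold changes of -2.50 to -2.04. The number of called connexins, 1, was 0 with no filter and 0 to 1 when a replicate was left out; a group then holds 1 library, which limma assumes to vary like the other group. The number of called pathway genes, 2, was 0 with no filter and 0 to 1 with a replicate left out. It was 5 with short RNA genes and genes at 0 in 1 replicate left out, 5 with robust variance and 5 with that gene filter and the replicate block, all chosen after seeing the data. Calls over all genes rose in these settings as well, from 266 of 12398 to 340 of 12065, 344 of 12398 and 344 of 12065 in that order. The log2 fold change of GJC1 was -0.28 to 0.045 with a replicate left out and turned positive without CPC replicate 2. With a replicate left out, the difference in summed FPKM was -15.4 to -10.7, and that in share was -26.9 to -20.2 percentage points for GJA1 and 0.673 to 2.55 for GJC1. Over all genes, the 266 calls became 20 with no filter, 152 at a mean of at least 5 FPKM and 59 to 159 with a replicate left out. With the replicate block, 176 genes, 1 connexin (GJA1, adjusted p = 0.0214 from limma) and 3 pathway genes (JUN added) were called. Nothing ties same-numbered cultures together beyond the number. Differences between replicates 1 and 2 correlated across genes between the groups with a Pearson's r of 0.0349 and a Spearman's rho of 0.356, and all 5 tested connexins differed in the same direction between the replicates of both groups. The steps between low FPKM are coarsest in ECsXAV replicate 2, the library of lowest relative depth, and the effect of depth on GJA4, GJD3 and the connexins under 1 FPKM was not tested. Where a cause is not given here, the cause was not tested.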

Other observations

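Neighbouring connexins on chromosome 13 stood at unlike levels in these cultures. GJB2 lies between GJA3, 26410 bases away, and GJB6, 29023 bases away. The levels over the 4 libraries were 28.8 to 36.2 FPKM for GJA3, 1.12 to 1.57 FPKM for GJB2 and 0 to 0.0247 FPKM for GJB6, a connexin of skin and the inner ear. GJA10 and GJD4 were listed at 0 in every library. PANX2 had 2.42 and 3.0 FPKM in ECsXAV and 2.87 and 4.11 FPKM in CPC, a difference of 0.26 on the log2 scale (limma, adjusted p = 0.532). These genes were picked with their values in view.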
